A study of Mus musculus with 12 samples.

Results

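Rbfox1, Rbfox2, Rbfox3, Ptbp1, Ptbp2, Nova1, Nova2, Elavl3, Elavl4 and Srrm4 are 10 genes that encode RNA-binding proteins which set neuronal splicing patterns and handle neuronal mRNAs. They were taken by symbol, through their Ensembl identifiers, from the 46603 gene identifiers in count tables of mouse neocortex RNA, and all 10 were found. The tables hold 12 libraries in 4 groups of 3, namely Chd8+/+ and Chd8+/- cortex at embryonic day (E) 12.5 and at postnatal day (P) 5, all labelled as strain C57Bl/6J. Chd8+/- mice carry 1 null allele of the chromatin remodeler Chd8, made by deleting a floxed exon with a beta-actin Cre that acts in every tissue, and they were bred against wild-type C57BL/6J mice. The Chd8+/+ mice are the wild-type controls, and no further allele or agent is named for any group. E12.5 samples held the microdissected cortices of both hemispheres and P5 samples that of 1 hemisphere, and each stage has its own count table, so stage, amount of cortex and table cannot be told apart. The labels do not say whether the 3 samples of a group came from separate litters, and the p-values measure the spread between these samples. In bulk cortex, fewer cells of a type and less RNA per cell cannot be told apart.

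Neural progenitors and neurons splice many of the same transcripts differently, and a small set of RNA-binding proteins directs the switch. Ptbp1, the polypyrimidine tract binding protein of progenitors and non-neural cells, represses neuronal exons, and its paralog Ptbp2 takes over in young neurons. Rbfox proteins activate or repress exons according to where they bind, Nova proteins organise the splicing of synaptic transcripts, Srrm4 promotes the inclusion of very short neuronal exons, and the Elavl (Hu) proteins bind uridine-rich stretches that govern the stability and splicing of neuronal mRNAs.

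Ptbp1 acts on its own transcript and on that of Ptbp2 through a pair of matching exons, and these are shown because the balance of the 2 genes is the comparison that follows from them. Skipping either exon shifts the reading frame, since its length of 34 bases leaves a remainder of 1 after division by 3, and transcripts without it are degraded. Both lie in the coding sequence on GRCm38, at chr10:79862014-79862047 on the plus strand (exon 9 of 13 of transcript Ptbp1-202) and at chr3:119724612-119724645 on the minus strand (exon 10 of 14 of transcript Ptbp2-201). Each is printed from the GENCODE M21 transcript with the exon in capitals and 30 bases of the neighbouring exons in lower case.
Ptbp1 exon 9: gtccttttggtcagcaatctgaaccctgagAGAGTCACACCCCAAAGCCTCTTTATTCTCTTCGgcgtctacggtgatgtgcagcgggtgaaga
Ptbp2 exon 10: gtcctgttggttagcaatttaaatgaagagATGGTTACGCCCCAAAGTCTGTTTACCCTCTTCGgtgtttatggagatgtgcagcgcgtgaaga
The 2 exons are identical at 26 of their 34 positions (76.5%), and 64.7% of the bases of each are C or T. Gene-level counts add reads over the whole gene, so the values here do not show how often either exon was included.

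The genes differ in size and in how much exon sequence they share with neighbours, which bears on the counts. Ptbp1 spans 10.3 kb at chr10:79854427-79864771, and Ptbp2 spans 65.7 kb at chr3:119718742-119784466. The counted model of Rbfox1 spans 603 kb at chr16:6809222-7412479, that of Rbfox2 228 kb at chr15:77078990-77307053 and that of Rbfox3 422 kb at chr11:118489762-118911597. An annotated Rbfox1 promoter lies upstream of its model, at chr16:5884543-5884842, so the gene reaches beyond what was counted. Rbfox1 levels per kb and ratios rest on the 4151 exon bases of the counted model. Nova1 lies at chr12:46694517-46818775, Nova2 at chr7:18925888-18965319, Elavl3 at chr9:22015005-22052023, Elavl4 at chr4:110203722-110351909 and Srrm4 at chr5:116439275-116591817. Of the exon bases, 31.7% of Nova2, 16.3% of Ptbp1 and 0.785% of Srrm4 also lie in exons of another gene. The 404 genes wholly inside exons of the opposite strand had 0 counts in both tables, so reads from such shared bases were not given to either gene, and the levels of Nova2 and Ptbp1 per length are low by that part.

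Library totals ran from 38774591 to 54695236 assigned fragments, and each of the 10 genes passed the filter on low counts in every comparison. Chd8 itself measured 229 to 235 CPM (counts scaled to library size) in Chd8+/+ and 161 to 167 in Chd8+/- libraries at E12.5, and 145 to 151 against 95.01 to 98.6 at P5, so every library matched its genotype label. The labelled tissue was checked by marker genes. Summed levels of 9 progenitor genes fell from 4247 to 4561 CPM at E12.5 to 271 to 324 at P5, while 6 pan-neuronal genes went from 3125 to 3722 CPM to 7562 to 8133. In the E12.5 Chd8+/- group, replicate 2 stood apart, with 576 CPM of meningeal markers against 239 to 368 in the other E12.5 libraries and 446 CPM of excitatory neuron markers against 581 to 729. It was also lower for GABAergic interneuron markers (498 against 588 to 613 CPM). Astrocyte markers (291 against 237 to 246 CPM) and oligodendrocyte lineage markers (151 against 113 to 126 CPM) were higher in it. The genotype differences of the 10 genes at E12.5 are given with and without that library.

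All 10 genes differed between E12.5 and P5 in both genotypes, and 5 were higher and 5 lower at P5 (edgeR quasi-likelihood test with Benjamini-Hochberg adjusted p under 0.05, tested over 19676 genes). This count has a high background, because 41.4% of all genes were called higher and 41.7% lower at P5 in Chd8+/+ cortex, and 41.3% and 41.6% in Chd8+/- cortex. More than 2-fold changes were 2 rises (Rbfox1 and Rbfox3) and 2 falls (Ptbp1 and Ptbp2) among the 10 in both genotypes, which is near the background of 26.4% and 20.1% of all genes in Chd8+/+ and 26.3% and 20.5% in Chd8+/- cortex. For every member the 3 libraries of one stage did not overlap the 3 of the other within a genotype, which 84.2% of all genes also showed in Chd8+/+ and 84.1% in Chd8+/- cortex. With the libraries scaled within each stage Nova2 overlapped in Chd8+/+ cortex, which left 9 of 10 members against 84.6% of all genes. Values below are CPM scaled by TMM (trimmed mean of M-values) over the 12 libraries, and they compare one gene between libraries, not different genes.

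Ptbp1 had the largest fall. At E12.5 it measured 325, 328 and 348 CPM in the Chd8+/+ libraries and 324, 324 and 327 CPM in the Chd8+/- libraries. At P5 the values were 55.4, 52.9 and 49.2 CPM in Chd8+/+ and 46.7, 50.7 and 49.3 CPM in Chd8+/-. The 6 libraries of a stage lay close together, and the lowest E12.5 library was far above the highest P5 library. Ptbp1 fell by 2.67 on the log2 scale (SE 0.05, edgeR adjusted p = 2.74e-15) in Chd8+/+ cortex and by 2.73 (SE 0.05, adjusted p = 2.28e-15) in Chd8+/- cortex, or 6.36-fold and 6.65-fold.

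Ptbp2 also fell, by less. It measured 505, 543 and 529 CPM in Chd8+/+ and 528, 504 and 544 CPM in Chd8+/- cortex at E12.5. At P5 it measured 182, 189 and 177 CPM in Chd8+/+ and 164, 173 and 173 CPM in Chd8+/-. The fall was 2.88-fold in Chd8+/+ (log2 change -1.52, SE 0.05, edgeR adjusted p = 6.83e-13) and 3.09-fold in Chd8+/- cortex (log2 change -1.63, SE 0.05). Both paralogs were thus at their higher level in the embryo.

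**Figure D1:**
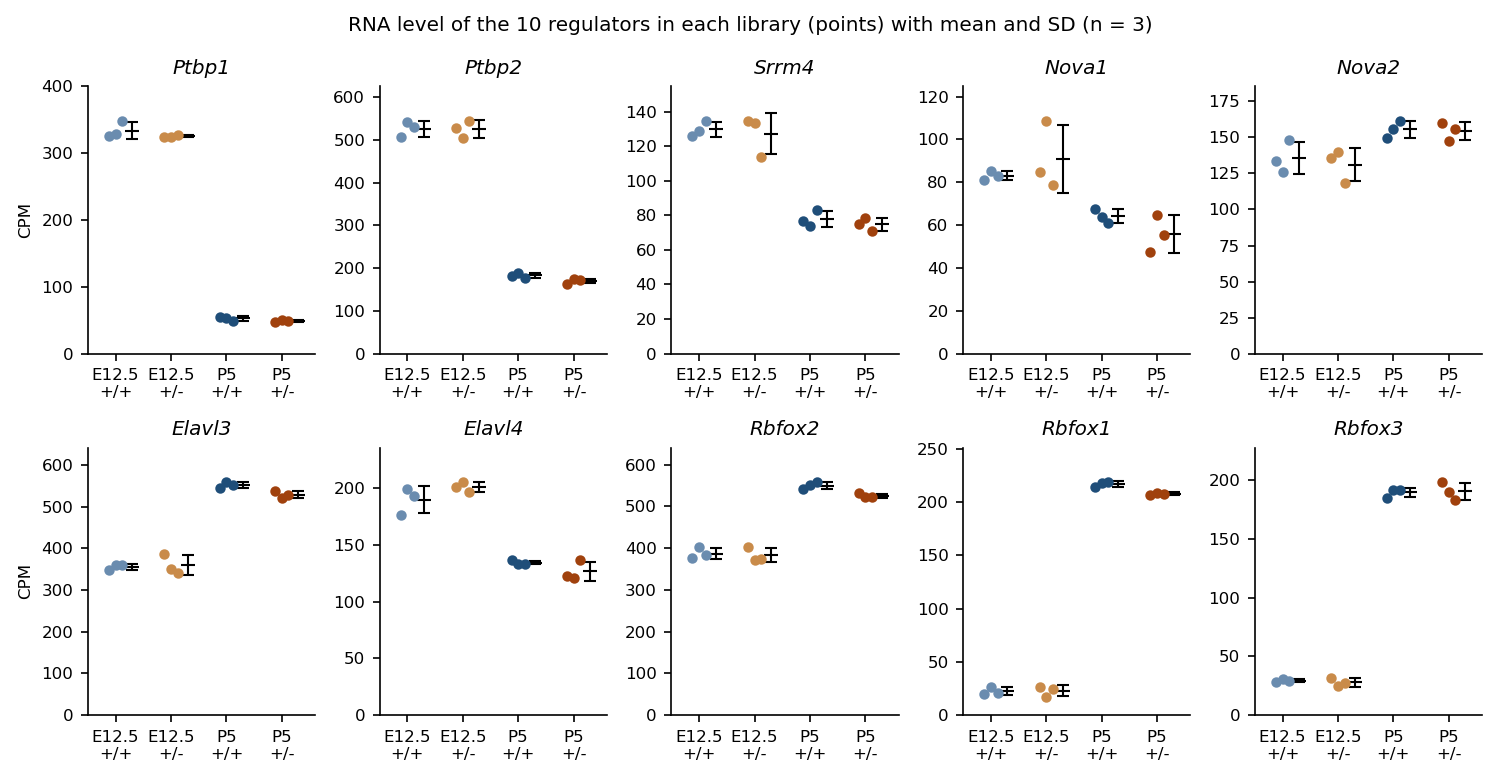
Each panel plots 1 gene in TMM-scaled CPM on a linear axis that starts at 0; points are the 12 libraries in their 4 groups and bars are group means with SD (n = 3). The Ptbp1 and Ptbp2 libraries drop from E12.5 to P5, the Rbfox1 and Rbfox3 libraries climb, and the genotypes of a stage lie near each other.

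The 3 Rbfox genes all rose, by very different amounts. Rbfox1 measured 19.6, 26.7 and 20.4 CPM in Chd8+/+ and 26.6, 17.2 and 24.6 CPM in Chd8+/- cortex at E12.5. At P5 it measured 214, 218 and 219 CPM in Chd8+/+ and 206, 209 and 208 CPM in Chd8+/-. The embryonic libraries were spread and the P5 libraries nearly equal, and the rise was 9.78-fold in Chd8+/+ (log2 change 3.29, SE 0.13, edgeR adjusted p = 4.84e-12) and 9.13-fold in Chd8+/- cortex (log2 change 3.19, SE 0.13). Rbfox3, whose protein is the neuronal nuclear antigen NeuN, went from 28.0, 31.0 and 28.9 CPM to 185, 192 and 191 CPM in Chd8+/+ cortex. In Chd8+/- cortex it went from 31.5, 24.7 and 26.9 CPM to 198, 189.9 and 183 CPM. No E12.5 library came near a P5 library, and Rbfox3 rose 6.47-fold in Chd8+/+ (log2 change 2.69, SE 0.07, edgeR adjusted p = 4.86e-14) and 6.87-fold in Chd8+/- cortex (log2 change 2.78). Rbfox2, which neural progenitors already express, ranged from 372 to 403 CPM over the 6 E12.5 libraries and from 522 to 558 CPM over the 6 P5 libraries. Its rise was 1.42-fold in Chd8+/+ (log2 change 0.51, SE 0.05, edgeR adjusted p = 1.26e-07) and 1.37-fold in Chd8+/- cortex.

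The 2 Elavl genes moved in opposite directions. Elavl3 (HuC) ranged from 341 to 387 CPM at E12.5 and from 522 to 559 CPM at P5, a rise of 1.55-fold in Chd8+/+ (log2 change 0.63, SE 0.05, edgeR adjusted p = 2.19e-08) and 1.47-fold in Chd8+/- cortex. Elavl4 (HuD), by contrast, measured 177, 199.6 and 194 CPM in Chd8+/+ and 202, 205 and 197 CPM in Chd8+/- cortex at E12.5. At P5 it measured 136, 133 and 134 CPM in Chd8+/+ and 123, 121 and 137 CPM in Chd8+/- cortex. All P5 libraries were below all E12.5 libraries, with a log2 change of -0.50 in Chd8+/+ (SE 0.05, edgeR adjusted p = 4.56e-07) and -0.67 in Chd8+/- cortex.

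Srrm4, the activator of microexons, measured 126, 129 and 135 CPM in Chd8+/+ and 135, 134 and 114 CPM in Chd8+/- cortex at E12.5, and 71.04 to 82.9 CPM over the 6 P5 libraries. It fell 1.67-fold in Chd8+/+ (log2 change -0.74, SE 0.06, edgeR adjusted p = 5.20e-08) and 1.70-fold in Chd8+/- cortex. Nova1 measured 81.2, 85.2 and 82.9 CPM in Chd8+/+ and 84.6, 109 and 78.9 CPM in Chd8+/- cortex at E12.5, against 67.5, 64.0 and 61.2 CPM and 47.2, 64.8 and 55.4 CPM at P5. The Chd8+/- values were more spread than the Chd8+/+ values at both stages. Nova1 fell 1.29-fold in Chd8+/+ (log2 change -0.37, SE 0.11, edgeR adjusted p = 0.00683) and 1.63-fold in Chd8+/- cortex (log2 change -0.70). Nova2 had the smallest change of the 10, from 118 to 148 CPM at E12.5 to 147 to 162 CPM at P5, with log2 changes of 0.20 in Chd8+/+ (SE 0.07, edgeR adjusted p = 0.0130) and 0.24 in Chd8+/- cortex (adjusted p = 0.00413). In Chd8+/+ cortex the Nova2 call was lost when replicate 1 or replicate 2 of the E12.5 libraries was left out (edgeR adjusted p = 0.0655 and 0.0861), and likewise replicate 3 of the P5 libraries (0.0555).

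**Figure D2:**
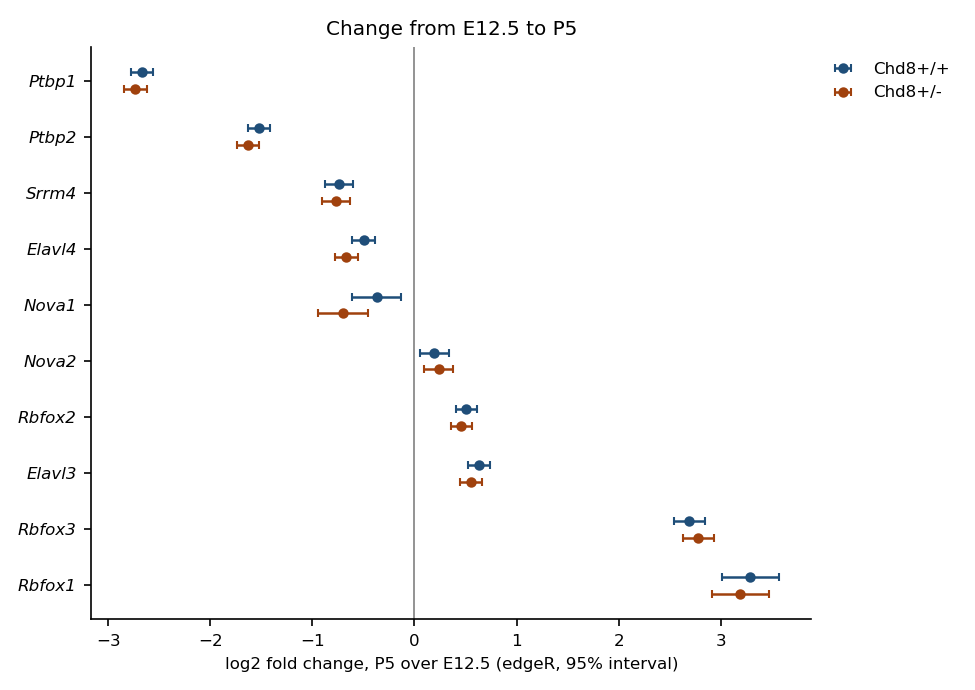
Points are edgeR log2 fold changes from E12.5 to P5 for the 10 genes in each genotype, and lines are 95% intervals. Values run from -2.67 for Ptbp1 to 3.29 for Rbfox1 in Chd8+/+ cortex.

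Levels per kilobase of exon allow the genes to be ordered. In E12.5 Chd8+/+ cortex Elavl3 (70.8 ± 1.28 CPM per kb, SD, n = 3) and Ptbp1 (70.5 ± 2.66) were highest with overlapping ranges, followed by Ptbp2 (57.3 ± 2.06), Rbfox2 (52.6 ± 1.93) and Elavl4 (35.3 ± 2.20). Nova2 (16.2 ± 1.34) and Srrm4 (14.99 ± 0.525) overlapped, Nova1 stood at 11.9 ± 0.293, and Rbfox1 (5.36 ± 0.932) and Rbfox3 (5.04 ± 0.257) were lowest and overlapped. In P5 Chd8+/+ cortex the order became Elavl3 (109.8 ± 1.36), Rbfox2 (74.8 ± 1.02), Rbfox1 (52.3 ± 0.652), Rbfox3 (32.6 ± 0.655), Elavl4 (24.98 ± 0.308), Ptbp2 (19.9 ± 0.638), Nova2 (18.6 ± 0.698) and Ptbp1 (11.1 ± 0.663), none of which overlapped its neighbour. Nova1 (9.18 ± 0.456) and Srrm4 (8.98 ± 0.540) came last and overlapped. In Chd8+/- cortex the order was the same at E12.5, with Srrm4 and Nova1 overlapping as well, and at P5 Nova1 and Srrm4 changed places within overlapping ranges and Ptbp2 overlapped Nova2. The places of Ptbp1 and Nova2 depend on the length used. Over the exon bases that no other gene shares, Ptbp1 measured 84.2 ± 3.18 CPM per kb in E12.5 Chd8+/+ cortex, above Elavl3 with no overlap, and 13.2 ± 0.792 at P5. Nova2 on that length measured 23.8 ± 1.95 at E12.5, above Srrm4 with no overlap, and 27.2 ± 1.02 at P5, above Elavl4 and Ptbp2.

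Ratios between family members, on the same CPM per kb scale, describe how each family was made up. Rbfox2 exceeded Rbfox1 9.91-fold in E12.5 Chd8+/+ cortex and 1.43-fold at P5, and it exceeded Rbfox3 10.4-fold and 2.30-fold. Elavl3 exceeded Elavl4 2.01-fold at E12.5 and 4.39-fold at P5. Nova2 exceeded Nova1 1.37-fold and then 2.03-fold, with the Nova2 level lowered by the exon bases that it shares. These family ratios are descriptions and were not tested.

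The Ptbp1 to Ptbp2 balance per kb of merged exon reversed between the stages. Its sign rests on the lengths used, 4740 bases for Ptbp1 and 9175 for Ptbp2. In CPM not divided by length Ptbp2 exceeded Ptbp1 in every library, with E12.5 Chd8+/+ means of 526 and 334 CPM. The shift between stages does not depend on these lengths. As a log2 ratio per kb, the balance was 0.32, 0.23 and 0.35 in E12.5 Chd8+/+ libraries. It was 0.25, 0.32 and 0.22 in E12.5 Chd8+/- libraries, so Ptbp1 was the more abundant of the pair per kb in all 6. At P5 it was -0.76, -0.88 and -0.90 in Chd8+/+ and -0.86, -0.82 and -0.86 in Chd8+/- libraries, so Ptbp2 was the more abundant in all 6. Per kb, Ptbp1 made up 55.1% ± 1.09 (SD, n = 3) of the pair in E12.5 Chd8+/+ and 54.5% ± 0.876 in E12.5 Chd8+/- cortex. Its share was 35.7% ± 1.195 in P5 Chd8+/+ and 35.8% ± 0.330 in P5 Chd8+/- cortex. Over the unshared bases of Ptbp1 the log2 ratio was 0.47 to 0.61 in the E12.5 and -0.64 to -0.51 in the P5 libraries, so its sign was the same and the shift between stages is not altered. The shift from E12.5 to P5 was -1.13 on the log2 scale (SE 0.03), a 2.18-fold fall of the ratio, with no overlap between the 6 libraries of each stage (two-sided exact permutation test, p = 0.00216, the smallest that 6 against 6 can give, adjusted p = 0.00649 over 3 tests of the balance).

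The balance did not differ detectably by genotype. The Chd8+/- minus Chd8+/+ difference was -0.04 at E12.5 (SE 0.05, exact permutation p = 0.5, adjusted p = 0.75) and 0.00 at P5 (SE 0.04, exact permutation p = 1), and the genotypes overlapped at both stages. Leaving out 1 library at a time gave -0.07 to -0.01 at E12.5. With 3 against 3 libraries the exact test cannot go below p = 0.1.

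**Figure D3:**
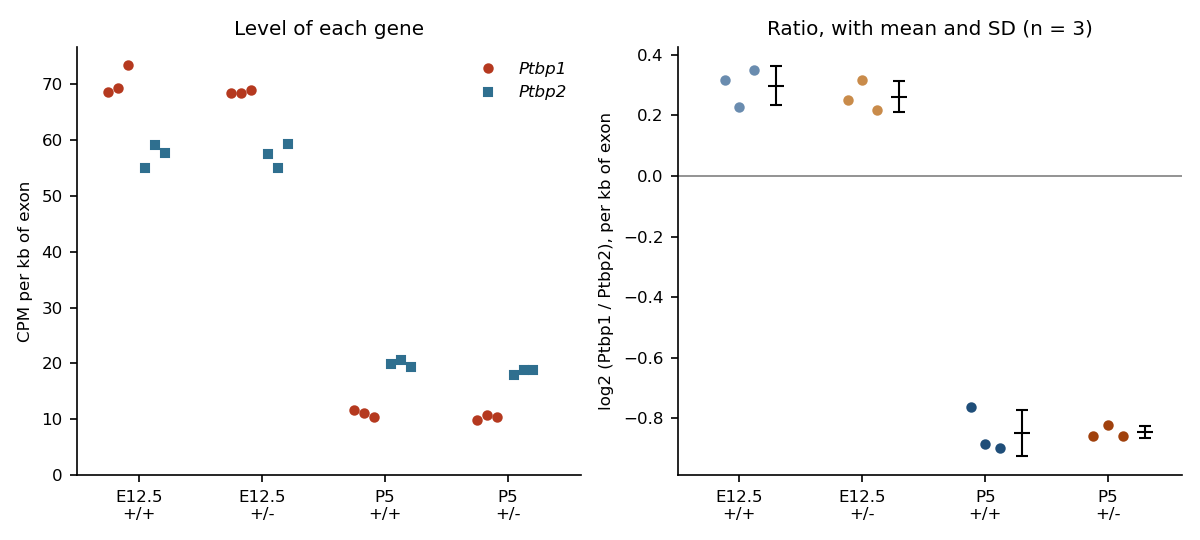
The log2 ratio of Ptbp1 to Ptbp2 per kb of exon is plotted for each of the 12 libraries, with group means and SD (n = 3); the line at 0 marks equal levels. The E12.5 libraries lie between 0.22 and 0.35 and the P5 libraries between -0.90 and -0.76.

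The genotype comparison at E12.5 asks whether losing 1 Chd8 allele alters these genes in the embryonic cortex. None of the 10 was called by edgeR (18081 genes tested, of which 0.00553% were called, a single gene that is Chd8 itself), none by DESeq2 (0.0102% of genes called), and none had an unadjusted p under 0.05 (5.15% of all genes did). Nor did the libraries of the genotypes separate for any member, while they did for 11.4% of all genes. The log2 differences, Chd8+/- minus Chd8+/+, ran from -0.08 for Rbfox3 to 0.13 for Nova1, with 4 members higher and 6 lower. The 95% intervals of all 10 lay between -0.34 and 0.41, and both of these bounds belong to Rbfox1, so a rise beyond 1.33-fold or a fall to under 0.792 of the Chd8+/+ level lay outside the interval of every member.

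Rbfox1 and Nova1 were the least precise at E12.5, and for both the E12.5 Chd8+/- replicate 2 was an extreme library. It held the lowest Rbfox1 level (17.2 CPM) and the highest Nova1 level (109 CPM) of the 6. Without it, the log2 difference of Rbfox1 moved from 0.04 to 0.21 and that of Nova1 from 0.13 to -0.02, and neither passed the test (edgeR adjusted p = 0.871 and 0.977). That library was also the lowest of the 6 for Rbfox2, Rbfox3, Ptbp1 and Ptbp2 and the highest for Elavl4, and without it their differences went from -0.02 to 0.01 for Rbfox2, from -0.08 to -0.0036 for Rbfox3, from -0.04 to -0.03 for Ptbp1, from -0.0016 to 0.03 for Ptbp2 and from 0.08 to 0.07 for Elavl4, so that Rbfox2 and Ptbp2 changed sign. When any 1 of the 6 libraries was left out, the difference ranged from -0.18 to -0.0036 for Rbfox3, from 0.029 to 0.12 for Elavl4 and from -0.062 to -0.0090 for Ptbp1. Without the same library Nova2 went from -0.05 to -0.10, Elavl3 from 0.01 to 0.04 and Srrm4 from -0.03 to -0.06. It carried the marker levels given above that lay outside the other E12.5 libraries, and their part in these values was not tested.

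At P5 the differences were again small. None of the 10 was called by edgeR (0.00536% of 18666 genes called, again Chd8 alone) and none by DESeq2, although DESeq2 called 5.22% of genes at this stage. Only Ptbp2 had an unadjusted edgeR p under 0.05, or 1 of 10 members against 17.8% of all genes. In DESeq2 Ptbp2 (unadjusted p = 0.0421) and Nova1 (unadjusted p = 0.0247) were under 0.05. The log2 difference of Ptbp2 was -0.09 (SE 0.04, edgeR adjusted p = 0.278), from 182, 189 and 177 CPM to 164, 173 and 173 CPM. It was -0.06 without P5 Chd8+/- replicate 1 (edgeR adjusted p = 0.532).

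Lower values in Chd8+/- cortex were the more frequent at P5, for 8 of the 10 members against 49.6% of all genes. Nova1 had the lowest difference, -0.19 (SE 0.09, edgeR adjusted p = 0.313), and it was -0.08 without P5 Chd8+/- replicate 1, the library with the lowest Nova1 level (47.2 CPM). Without P5 Chd8+/- replicate 2, the highest of that group, it was -0.31 (edgeR adjusted p = 0.0519, the smallest over all alternatives, the largest being 0.678). Ptbp1 differed by -0.09, Elavl4 by -0.07, Rbfox1 and Rbfox2 by -0.05 each, Elavl3 and Srrm4 by -0.04 each, Nova2 by 0.00 and Rbfox3 by 0.02. When 1 library at a time was left out, the difference of Ptbp1 ranged from -0.13 to -0.046 and that of Elavl4 from -0.12 to -0.036. The intervals lay between -0.39 (Nova1) and 0.11 (Rbfox3), so the largest fall compatible with them for any member is to 0.765 of the Chd8+/+ level.

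The genotypes did not overlap at P5 for 4 members, Rbfox1, Rbfox2, Ptbp2 and Elavl3, each lower in Chd8+/- cortex. That is 4 of 10 against 23.4% of all genes, and 3 of 10 when the P5 libraries were scaled on their own, where Elavl3 overlapped and the background was 23.2%. For Rbfox1 the groups were 217 ± 2.71 and 208 ± 1.35 CPM (SD, n = 3), and for Rbfox2 the Chd8+/+ libraries began at 542 CPM and the Chd8+/- libraries ended at 531 CPM. The separation therefore rests on gaps of a few percent.

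Levels of cell type markers at P5 stand beside these values. Of 65 marker genes 29 had an unadjusted edgeR p under 0.05 by genotype, against 17.8% of all genes. Lower in Chd8+/- cortex were 25 of them. All 4 choroid plexus genes and all 5 genes of striatal medium spiny neurons had an unadjusted edgeR p under 0.05 and were lower in Chd8+/- cortex, with summed levels of 431 to 561 CPM against 315 to 373 CPM and of 231 to 252 CPM against 165 to 209.5 CPM. Of the 6 markers of GABAergic interneurons 3 had an unadjusted p under 0.05, all lower, and their sum was 570.1 to 583 CPM in Chd8+/+ and 477 to 548 CPM in Chd8+/- libraries. The same held for 3 of 4 endothelial genes, all lower, 3 of 5 erythrocyte genes, 2 of them lower, and 5 of 9 progenitor genes, 4 of them lower. Of the neuronal lists, 3 of 6 pan-neuronal genes did, 2 of them lower, and 2 of 7 genes of cortical excitatory neurons, both lower. Of 4 meningeal genes 1 did, and it was higher, while none of 5 astrocyte, 6 oligodendrocyte lineage and 4 microglia genes did. The median log2 difference was -0.01 for the pan-neuronal and 0.04 for the excitatory neuron list. The progenitor genes summed to 289 to 324 CPM in Chd8+/+ and 271 to 299 CPM in Chd8+/- libraries, with a median log2 difference of -0.14. No gene of the 12 marker lists passed the adjusted threshold of edgeR. DESeq2, which called 5.22% of all genes it tested, called 11 marker genes, all lower. They were 3 of choroid plexus, 3 of striatal neurons, 2 of endothelium, 2 of cortical excitatory neurons and 1 of GABAergic interneurons. The part of these markers in the P5 differences of the 10 genes was not tested.

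**Figure D4:**
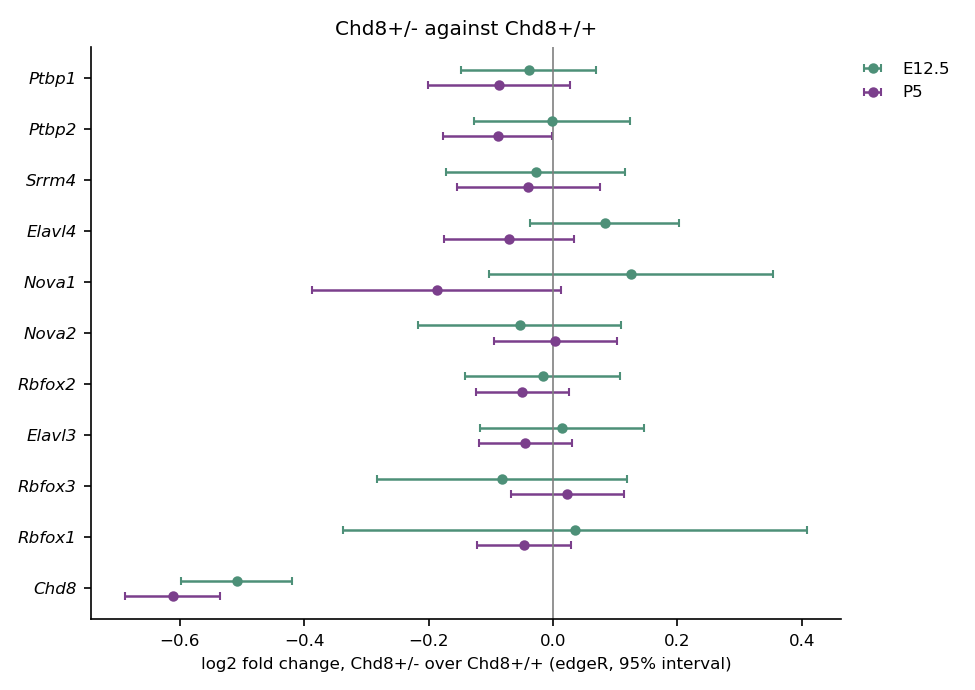
Points are edgeR log2 differences, Chd8+/- minus Chd8+/+, for the 10 genes and Chd8 at E12.5 and at P5, and lines are 95% intervals (3 libraries per group). Estimates of the 10 genes lie between -0.19 and 0.13, and the interval of Rbfox1 at E12.5 is the widest. Chd8 lies at -0.51 at E12.5 and -0.61 at P5.

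A further test over the 12 libraries asked if the genotype difference itself changed from E12.5 to P5 (the interaction term). None of the 10 members was called, and neither was any other gene by edgeR (0% of 19676 genes, with 1972 genes at an unadjusted p under 0.05 and 8 called by DESeq2, 0.0245% of the genes it tested). Elavl4 had the smallest adjusted p of the members, with an interaction of -0.17 (SE 0.07, edgeR adjusted p = 0.472), which ranged from -0.23 to -0.089 when 1 library was left out. It came from a difference of 0.08 at E12.5 and -0.07 at P5. Nova1 had the largest interaction, -0.33 (edgeR adjusted p = 0.506), which was -0.17 without E12.5 Chd8+/- replicate 2.

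The 10 genes act among a wider set of 71 related genes, grouped in 4 lists, and the stage change of these lists gives the members their setting. Among 6 paralogs of the members, 1 rose and 5 fell in Chd8+/+ cortex, with a median log2 change of -0.85 against -0.02 for all genes. Of all genes 41.4% were called higher and 41.7% lower in Chd8+/+ cortex. The riser was Srrm3 (1.59), the paralog of Srrm4, which moved opposite to it. Ptbp3 (-1.36) and Elavl1 (-1.18), the broadly expressed members of their families, fell, as did Srrm1, Srrm2 and Elavl2. In Chd8+/- cortex the counts were also 1 and 5.

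Core and general splicing factors fell nearly throughout. Of 30 genes for SR proteins, hnRNPs and spliceosome parts, 29 fell and 1 rose in both genotypes, and 24 in Chd8+/+ and 26 in Chd8+/- cortex fell more than 2-fold. Over all genes the shares called lower were 41.7% and 41.6%, and the shares that fell more than 2-fold were 20.1% and 20.5%. The median log2 change was -1.30 in Chd8+/+ cortex, so the fall of Ptbp2 (-1.52) was near it, and that of Ptbp1 (-2.67) was larger than that of any gene on this list. Hnrnpa1 (-2.22), which has many processed copies in the genome, and Hnrnph1 (-1.97) led the fallers. The riser was Snrpn (2.101), the neuronal Sm protein, whose locus is shared with Snurf.

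Other RNA-binding regulators were mixed, with 7 that rose, 11 that fell and 3 not called among 21 tested in Chd8+/+ cortex. In Chd8+/- cortex 7 rose, 13 fell and 1 was not called. The shares over all genes were 41.4% higher and 41.7% lower in Chd8+/+, and 41.3% and 41.6% in Chd8+/- cortex. Mbnl3 (-4.55), the progenitor protein Msi1 (-2.70) and Rbm20 (-2.43) had the largest changes in Chd8+/+ cortex. Among 13 known RNA targets of the members, 9 rose and 3 fell in Chd8+/+ cortex, with a median of 1.81. Over all genes 41.4% rose and 41.7% fell there. Grin1, an NMDA receptor subunit (5.98), Gap43, an mRNA that Elavl4 binds (3.33), and Glra2, a Nova target (2.96), had the largest changes. The 3 targets that fell, named after their values were seen, were Rest (-2.43), Unc13b (-0.51) and Flna (-0.22).

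**Figure D5:**
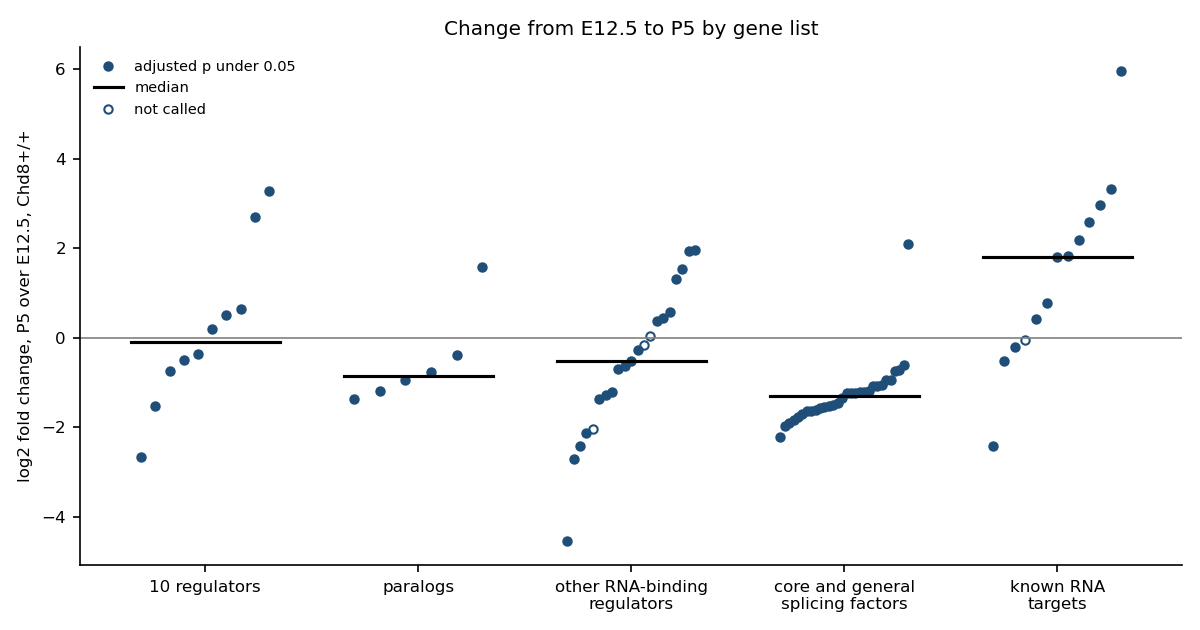
Each point is a gene of the 10 members or of the 4 related lists, placed by its edgeR log2 change from E12.5 to P5 in Chd8+/+ cortex. Core splicing factors lie below 0 except Snrpn, and known targets lie mostly above 0, with a median of 1.81.

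By genotype, no related gene was called by edgeR at either stage. At E12.5 3 of 70 tested had an unadjusted edgeR p under 0.05, near the 5.15% of all genes. Of these 2 were higher and 1, Scn8a (-0.21), was lower in Chd8+/- cortex. At P5 16 of 69 did, 12 of them lower in Chd8+/- cortex, against 17.8% of all genes. The smallest p belonged to Sf3b1, a U2 snRNP component, which measured 357, 360.0 and 350 CPM in Chd8+/+ and 304, 317 and 321 CPM in Chd8+/- cortex (log2 difference -0.16, edgeR adjusted p = 0.108). Glra2 followed at -0.14 (adjusted p = 0.118). DESeq2 and edgeR without the filter on low counts, which called 3.18% of genes at P5, both called Sf3b1, Elavl2 (-0.17), Msi2 (-0.18) and Hnrnpm (-0.14), and edgeR without P5 Chd8+/- replicate 2 called Msi2 alone. None of the 10 members was called in those fits.

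The genes whose pattern over the 12 libraries came closest to Ptbp1 and to Rbfox3 were found by the root mean square difference of centred log2 CPM, among 19675 candidates. For Ptbp1 they were Prkd3 (0.0547), Zswim5 (0.0584) and Syne2 (0.0639). For Rbfox3 they were Nrxn2 (0.0417), a presynaptic adhesion gene, Thra (0.0495) and Atp9a (0.0512). The stage difference makes up most of each pattern.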

How the data were processed

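RNA from microdissected neocortex was poly(A) selected, made into strand-marking (dUTP) libraries and sequenced paired-end. Per the labels and the study's methods, the authors trimmed reads (Trim Galore 0.4.1), aligned them to GRCm38.p4 (TopHat2 2.1.0) and made raw fragment counts per gene (featureCounts 1.5.0). The deposited counts are whole numbers in 1 table per stage with 2 sequencing runs per library, which were summed. The header of the P5 table names no strand option, and the E12.5 counting command is not given in the sources used here.

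Genotype was tested within each stage, and stage and its interaction with genotype in 1 model of 12 libraries, with edgeR 4.0.16 (TMM, filterByExpr, quasi-likelihood test, Benjamini-Hochberg adjustment, threshold 0.05) in R 4.3.3. DESeq2 1.42.0, limma-voom 3.58.1, other scalings and filters, a replicate block, gene length offsets and leaving out each library were alternatives. The scripts were tested on simulated counts. For genotype, edgeR recovered 8% of simulated log2 changes of 0.3 at E12.5 and 40% at P5. For changes of 1 it recovered 82% and 86%. Of its calls 9.85% and 15.3% were false at the 0.05 threshold. The balance of Ptbp1 and Ptbp2 was tested by exact permutation (Python 3.11.15). Gene lengths are merged exon lengths. No pairing of samples by replicate number is labelled, and the main tests did not use it.

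The 10 members and the related and marker lists were chosen with earlier results of these data known. Named are all members, from each related list the 3 genes with the largest stage change in Chd8+/+ cortex, the 2 with the smallest p per genotype comparison, and for Ptbp1 and Rbfox3 the 3 nearest genes. Other genes of the lists were named after their values were seen. A gene that this rule names is not reported here. A term for the 4 libraries with high Xist, and levels per unshared exon base, were alternatives added after seeing the data. Library totals were 38774591 to 54695236 counts, and precision is set by the spread of the 3 libraries per group.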

Additional observations from a re-analysis of the deposited data

How the results depend on the processing

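All 10 stage changes kept their direction in every alternative. Members called fell from 10 to 4 in both genotypes where a 2-fold change was also asked for, and ranged from 9 to 10 in Chd8+/+ cortex when 1 library was left out. With the replicate number as a block 9 were called in each genotype, Nova2 being lost at 0.18 (edgeR adjusted p = 0.170) and 0.22 (adjusted p = 0.0973), and 0 in the genotype and interaction tests. Same-numbered samples correlated at -0.30, -0.13 and -0.15 at E12.5 and at 0.245, 0.109 and 0.0288 at P5. Different-numbered samples ranged from -0.12 to 0.26 at E12.5 and from -0.22 to 0.14 at P5. Pairing by number was thus not seen at E12.5, and these weak values do not settle it at P5. The paired difference of the Ptbp1 to Ptbp2 balance was -0.04 at E12.5 (exact permutation p = 0.75) and 0.00 at P5 (p = 1).

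No member was called by genotype in any alternative, and several small differences changed sign. At E12.5 that of Ptbp2 was 0.0024 with upper-quartile scaling. At P5 that of Srrm4 was 0.015 with gene length offsets and that of Nova2 -0.012 in the 12-library model. The Srrm4 interaction was 0.028 with length offsets, and the balance at P5 was -0.044 in the second sequencing run alone. Leaving out 1 library gave at E12.5 -0.041 to 0.050 for Elavl3, -0.021 to 0.22 for Nova1, -0.10 to 0.016 for Nova2, -0.034 to 0.030 for Ptbp2, -0.086 to 0.21 for Rbfox1, -0.053 to 0.018 for Rbfox2 and -0.070 to 0.046 for Srrm4. At P5 it gave -0.023 to 0.038 for Nova2, -0.0077 to 0.059 for Rbfox3, -0.077 to 0.015 for Srrm4 and -0.022 to 0.046 for the balance. For the interaction it gave -0.089 to 0.0034 for Elavl3, -0.015 to 0.11 for Nova2, -0.26 to 0.042 for Rbfox1, -0.067 to 0.0099 for Rbfox2 and -0.079 to 0.038 for Srrm4. The cause of these changes was not tested.

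Related genes called at P5 went from 0 to 4 with DESeq2 and to 4 without the filter on low counts, and ranged from 0 to 1 when 1 library was left out. Over all genes edgeR called 1 at P5, against 651 by DESeq2, 995 without the filter, 22 with robust dispersions, 4 with the block, 4 in the 12-library model and 327 without P5 Chd8+/- replicate 2. At E12.5 it called 1, against 3 by DESeq2 and 13 without the filter. Scaling moved the median stage change of all genes between -0.07 and 0.05.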
